A study of Mus musculus with 4 samples.

Results

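The cells described here were aortic endothelial cells that carried transcripts of at least 2 of 4 markers, Sema3g, Stmn2, Ptprr and Atp2a3. A cell was kept when it had at least 500 unique molecular identifiers (UMIs, each standing for 1 captured transcript) and at most 15% of them from mitochondrially encoded genes. A kept cell was a member when at least 2 of the 4 markers had a UMI, fewer than 2 of 4 lymphatic genes (Ccl21a, Mmrn1, Lyve1 and Reln) had one, and fewer than 4 of 8 capillary genes (Gpihbp1, Rgcc, Lpl, Car4, Timp4, C1qtnf9, Cd300lg and Tcf15) had one. Members were thus chosen by their own transcripts of these 16 genes, and the rule genes are described but never counted as results. By this rule 316 of 1569 kept cells of the KO aorta and 63 of 404 kept cells of the WT aorta were members, together 379 of 1973 aortic cells and of 3256 kept cells in the series. Members made up 20.1% of the KO cells (95% Clopper-Pearson interval 18.2 to 22.2%) and 15.6% of the WT cells (12.2 to 19.5%). Deeper cells meet the rule more easily. Cells of at least 1000 UMIs were therefore also thinned to 1000 UMIs before the rule, with shallower cells left out. Of the thinned cells 6.90% in the KO and 7.23% in the WT library were members, so no order of the genotypes is read from the shares.

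The series asked how loss of the transcription factor OCT4 (gene Pou5f1) from endothelium alters aortic and lung endothelial cells in mice prone to atherosclerosis. The KO group held EC-Oct4Δ/Δ mice (3 animals, labelled Oct4 knockout) and the WT group EC-Oct4+/+ mice (2 animals, labelled Oct4 wild type). All were female, of strain C57/B6J, of an Apoe knockout line whose endothelial lineage was traced by eYFP, and all ate a Western diet for 5 weeks, so both groups carried the Apoe defect and the diet. Arch, thoracic and abdominal aorta were digested together with the transcription blocker actinomycin D at 1 µg/mL, eYFP-positive cells were sorted against a gate set on littermates lacking the Cdh5 driver, and 10x Chromium libraries were made. The animals of a genotype gave 1 aortic library, so cells could not be assigned to a mouse or to a stretch of the aorta. The sources used here give neither the ages of the mice nor details of the Cre construct.

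Arterial endothelium keeps its identity through Notch signalling and SoxF factors such as SOX17, and it joins its cells through the connexins CX37 (Gja4) and CX40 (Gja5). The 4 markers belong to different processes. Sema3g encodes a secreted class 3 semaphorin, a guidance cue that acts through neuropilin and plexin receptors and is typical of arterial endothelium. Stmn2 encodes stathmin-2, a microtubule-binding protein best known from growing axons. Ptprr encodes a tyrosine phosphatase that dephosphorylates MAP kinases, and Atp2a3 encodes SERCA3, a calcium pump of the endoplasmic reticulum.

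The aortic libraries held 4483756 UMIs in 1623 barcodes (KO) and 1034161 UMIs in 449 barcodes (WT). Members were deeper than the other kept cells, with a median of 2967.5 UMIs against 2211 in the KO library and 3770 against 1901 in the WT library. Members ranged from 704 to 13874 UMIs in the KO library and from 506 to 9458 in the WT library. Levels are given as CPM, the UMIs of a gene per 1000000 UMIs summed over a group of cells of 1 library. Intervals are 95% intervals, exact Poisson for a level and exact conditional for a ratio, and cover counting error only. With 1 library per genotype no value has a replicate check, so no test was run and every ratio describes these libraries. Where a gene had 0 UMIs, up to 3 were taken as possible, which is 2.81 CPM for KO members and 13.7 CPM for WT members. The KO and WT aortic libraries shared 2 cell barcodes. A doublet caller (Scrublet) marked 0 KO members and 3 WT members, which were kept. Pou5f1 (chr17:35506018-35510772) had 0 UMIs in members of both genotypes and 1 UMI in all other kept aortic cells, in the KO library, so it gave no check of the labels at this depth. Apoe transcripts were counted in members at 77.8 CPM (KO) and 81.9 CPM (WT). A gene count does not show which exon was deleted.

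The marker genes themselves chose the cells, so their values are a description. Stmn2 had a UMI in 84.8% of KO members and 81.0% of WT members, Ptprr in 62.0% and 66.7%, and Atp2a3 in 58.9% and 65.1%. Sema3g was the rarest of the 4, with a UMI in 24.4% of KO members (77 of 316) and 27.0% of WT members (17 of 63). The group therefore rested mainly on Stmn2 with Ptprr (154 KO and 31 WT members) or Stmn2 with Atp2a3 (142 and 31). Sema3g with Stmn2 was found in 64 KO and 13 WT members. After each cell was thinned to 1000 UMIs, Stmn2 was found in 46.3% and Sema3g in 11% of the 309 KO members deep enough.

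In cells past the lymphatic limit, which lack arterial identity, Sema3g had a UMI in 0 of 140 KO cells (a count of 0 allows up to 2.14%) and 0 of 38 WT cells (up to 7.89%). Stmn2 was not particular to arterial cells, since 39.3% of the KO and 55.3% of the WT lymphatic cells had it. Median depths were 1880.5 UMIs in KO and 1623.5 in WT lymphatic cells, below those of the members. Sema3g reached 98.2 CPM in the KO and 90.2 CPM in the WT cells past the capillary limit, near the 94.6 CPM of KO members and below the 150.2 CPM of WT members.

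Just inside the threshold stood the members with exactly 2 markers, 236 of 316 in the KO and 42 of 63 in the WT library. Just outside stood cells with 1 marker that passed both limits, 371 KO and 84 WT cells. Members with 3 or 4 markers numbered 80 KO and 21 WT cells, and only 6 KO cells and 1 WT cell with at least 2 markers were turned away by a limit. Among KO members 250 had no capillary gene and 4 had 3 of them, the most the rule allows. Among WT members 47 had none and 4 had 2. Choosing cells by 3 of the markers and reading the one left out gave higher levels of the one left out for each marker and in each library. The 4 markers were chosen together with earlier results of these data known. These values therefore describe the members and cannot check that they form a group. Sema3g was 3.83-fold higher in KO cells with at least 2 of the other 3 markers than in the rest within the limits (2.61 to 5.64), and 10.8-fold in WT cells (4.802 to 27.3). The other 3 markers gave 1.60- to 2.56-fold in the KO and 2.32- to 2.61-fold in the WT library, with every interval above 1. Deeper cells show more markers, and the chosen cells were also deeper (medians of 2944 to 3103.5 KO UMIs, against 2356 to 2427 in the rest, and of 3595.5 to 4054 WT UMIs, against 2156 to 2275). For Sema3g in the WT library the medians were 3771 against 2156 UMIs. The part of depth in these ratios was not tested.

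On mm10 with GENCODE M21 annotation the 4 marker genes lie on 4 chromosomes. Sema3g spans chr14:31217860-31230352 and Atp2a3 chr11:72961169-72993044, both on the plus strand. Ptprr spans chr10:116018213-116274932 and Stmn2 chr3:8509360-8561606, also on the plus strand. These spans cover exons, introns and UTRs, and the counts are per gene. The promoters of Sema3g and Atp2a3 are shown because these markers were rarest in lymphatic cells, at 0 of 140 KO and 0 of 38 WT cells for Sema3g and 1 and 0 for Atp2a3. Each runs from 250 bases before to 50 bases after a RefSeq start on GRCm38.p6, plus strand, at chr14:31217623-31217922 and chr11:72960919-72961218. Capitals mark TTCCCA, the reverse complement of the Notch effector RBPJ's core TGGGAA, in Sema3g, and the ETS core CCGGAA in Atp2a3.
Sema3g promoter: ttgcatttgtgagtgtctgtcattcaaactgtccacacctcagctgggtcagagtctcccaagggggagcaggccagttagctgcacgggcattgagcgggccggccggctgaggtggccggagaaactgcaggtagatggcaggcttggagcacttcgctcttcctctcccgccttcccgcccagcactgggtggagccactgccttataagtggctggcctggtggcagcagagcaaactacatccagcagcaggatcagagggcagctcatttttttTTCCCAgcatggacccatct
Atp2a3 promoter: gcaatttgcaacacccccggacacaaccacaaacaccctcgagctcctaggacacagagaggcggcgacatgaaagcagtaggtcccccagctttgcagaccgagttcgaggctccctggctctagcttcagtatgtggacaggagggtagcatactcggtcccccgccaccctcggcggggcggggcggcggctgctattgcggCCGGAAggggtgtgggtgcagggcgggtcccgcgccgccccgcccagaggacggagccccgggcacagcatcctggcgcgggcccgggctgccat
The motifs searched, on both strands, were TGGGAA (RBPJ), CCGGAA (ETS) and AACAAT (SOX), and each printed window held 1 match, overlapping no other motif. The windows of the marker Ptprr, not printed, held 0 matches, as did that of Dkk2, a gene described below. The marker Stmn2 had no window. Of 32851 RefSeq promoter windows of this length, 25.6% held TGGGAA, 14.9% CCGGAA and 10.7% AACAAT. Of 21 genes (the 4 markers and the genes named below as higher in members) 15 had a window in the table. TGGGAA was found in 4 of the 15, CCGGAA in 4 and AACAAT in 2. Matches are common by this count and describe the letters only.

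Levels of genes that took no part in the rule were followed over cells with 0, 1, 2 and 3 or 4 markers, all within both limits. In the KO library Ly6c1, a GPI-anchored surface protein, stood at 488, 965, 1743 and 3778 CPM, and in the WT library at 580.4, 1089.6, 1523 and 3042 CPM. Cldn5, the main claudin of endothelial tight junctions, stood at 693, 964, 1518 and 2189 CPM in KO cells and 868, 984, 1180.3 and 2793 CPM in WT cells. Pi16, a secreted peptidase inhibitor-like protein, stood at 203, 286, 443 and 631 CPM (KO) and 83.7, 298, 319.8 and 452 CPM (WT). Each of these 3 genes was higher with each added marker in both libraries. Sox17, an arterial transcription factor (chr1:4490931-4497354), did the same in the KO library (91.7, 139, 211 and 411 CPM) but in WT cells stood at 75.3, 204, 228 and 204 CPM. Mgp, matrix Gla protein and an inhibitor of calcification, stood at 8652, 10559.6, 12515 and 14360.0 CPM in KO cells and at 5687, 7386, 10629.9 and 11658 CPM in WT cells.

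The connexin gene Gja5 differed mainly between cells with no marker and cells with any, at 151, 240.2, 247 and 289 CPM (KO) and 83.7, 260.2, 312 and 328 CPM (WT). Emcn, endomucin, a sialomucin of capillary and venous endothelium, ran the other way, at 764, 574, 315 and 73.2 CPM in KO and 460.4, 256, 159.9 and 102 CPM in WT cells. Igfbp7 ran the same way as Emcn (827, 408, 286 and 94.1 CPM in KO cells). The pan-endothelial cadherin gene Cdh5 was flat, at 454, 460.0, 459 and 460.1 CPM in KO cells. The secreted protein gene Cytl1 peaked at 2 markers in both libraries, at 10245, 15484, 17225 and 13049.5 CPM (KO) and 12082, 19436, 25273 and 15729 CPM (WT).

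**Figure D1:**
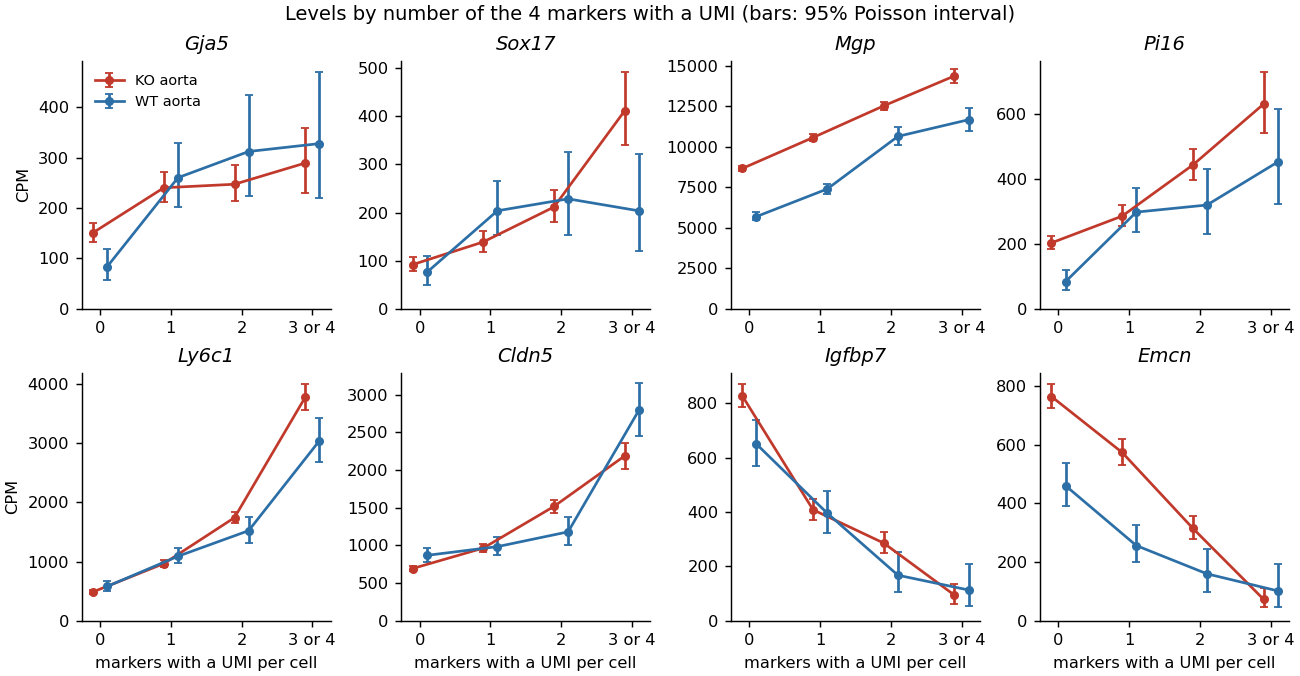
Levels of 8 genes outside the rule (vertical axes, CPM) in cells with 0, 1, 2, or 3 or 4 of the 4 markers (horizontal axes), for the KO and WT aortic libraries, with 95% Poisson intervals. Ly6c1, Cldn5 and Pi16 were higher with each added marker in both libraries, and Igfbp7 and Emcn lower.

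To describe the members against other endothelium, summed levels were compared with those of the other kept aortic cells within the same lymphatic and capillary limits, called comparison cells (1018 KO and 252 WT cells). Genes were measured when their mean over the groups was at least 50 CPM with at least 30 UMIs in all, and the 16 genes of the rule were left out. A gene was counted as higher or lower from a 2-fold difference. Among 2972 genes, 24 (0.808%) were higher and 47 (1.58%) lower in KO members than in KO comparison cells. In the WT library, with fewer UMIs, 62 (2.09%) were higher and 76 (2.56%) lower. In both libraries at once 11 genes (0.37%) were higher and 33 (1.11%) lower. Since the rule sorted these same cells, the counts are a description. Scaling by the median ratio of all genes gave 45 higher and 93 lower in the WT library, and leaving out the highest cell of each group for each gene gave 37 and 104. With at least 3 of the 4 markers asked of a member, 73 were higher and 84 lower in the KO library. Against all other kept aortic cells, which include the lymphatic and capillary cells, 27 genes (0.908%) were higher and 59 (1.99%) lower in KO members, and 63 (2.12%) and 100 (3.36%) in WT members. Of these, 18 (0.606%) were higher and 45 (1.51%) lower in both libraries.

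Of the genes measured, the one furthest above comparison cells in both libraries was Slc6a6, the taurine transporter (chr6:91684053-91759066). It stood at 91.8 CPM in KO members against 12.1 in KO comparison cells (7.58-fold, 5.11 to 11.5), and at 81.9 against 11.2 CPM in the WT library (7.30-fold, 2.91 to 20.7). It had a UMI in only 8.54% of KO and 12.7% of WT members, and in 1.43% of KO and 0 of 38 WT lymphatic cells. Slc6a6 was not particular to members, since capillary cells reached 184 CPM (KO) and 210.4 CPM (WT). Dkk2, a secreted modulator of Wnt receptors (chr3:132085292-132180304), stood at 130.2 against 41.9 CPM in the KO library (3.11-fold, 2.42 to 4.003). In the WT library it stood at 68.3 against 14.4 CPM (4.73-fold, 1.94 to 12.3), from 15 and 9 UMIs. Outside the members Dkk2 stood at 43.0 CPM in KO capillary cells and 3.37 CPM in KO lymphatic cells, and had 0 UMIs in both classes of the WT library, where up to 45.1 and 37.6 CPM could have been missed.

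Surface and junction genes were also higher in members. Ly6c1 stood at 2290.3 CPM in KO members against 673 in KO comparison cells (3.40-fold, 3.20 to 3.61), and at 2134 against 797 in the WT library (2.68-fold, 2.35 to 3.04). Of its 3′ sequence 31.8% is shared with Ly6c2, so part of the count could belong to that gene. Its relative Ly6a (Sca-1) was 1.80-fold higher in KO and 1.70-fold higher in WT members. Cldn5 stood at 1698 against 798 CPM in the KO library (2.13-fold, 2.00 to 2.26) and at 1829 against 917 in the WT library (1.99-fold, 1.75 to 2.27). The receptor phosphatase gene Ptprj was 1.78-fold and 2.22-fold higher, with 46.0% of its 3′ sequence shared with another gene. For each of these genes both libraries gave the same direction. The WT log2 ratio of Ptprj was 0.43 with cells thinned to 1000 UMIs, below the 2-fold rule.

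Matrix and secreted genes made up most of the rest of the named genes. Timp3, a matrix-bound metalloproteinase inhibitor, stood at 1239 CPM in KO members against 659 in comparison cells (1.88-fold, 1.75 to 2.02), and at 1492 against 747 in the WT library (2.00-fold, 1.73 to 2.31). Col8a1, which encodes a network-forming collagen of vessels, was 2.00-fold higher in KO and 3.15-fold higher in WT members, and Pi16 2.10-fold and 2.13-fold. Klk10, a kallikrein-related peptidase known as a product of endothelium under steady laminar flow, was 1.76-fold and 2.33-fold higher. Pthlh, which encodes parathyroid hormone-related peptide, was 3.76-fold and 2.10-fold higher. The septin gene Sept11 (2.40-fold KO, 2.84-fold WT) and the nuclear receptor gene Nr4a2 (2.12-fold, 3.11-fold) completed the list of 12 highest. Against all other kept cells the same rule also named Pdlim2, a cytoskeletal adaptor, the long non-coding RNA Meg3 and the calcium-binding protein gene S100a4, whose 3′ sequence is shared to 54.6%. In KO members these were 2.19-fold, 1.84-fold and 2.41-fold higher, and in WT members 2.89-fold, 2.00-fold and 2.34-fold. The KO log2 ratio of Meg3 changed sign with at least 3 markers, to -0.46. Thinning to 1000 UMIs brought the WT log2 ratio of Col8a1 to 0.70. Mgp, among the most abundant transcripts, stood at 13011 CPM in KO members against 9394 in comparison cells, and at 11044 against 6409 in the WT library.

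**Figure D2:**
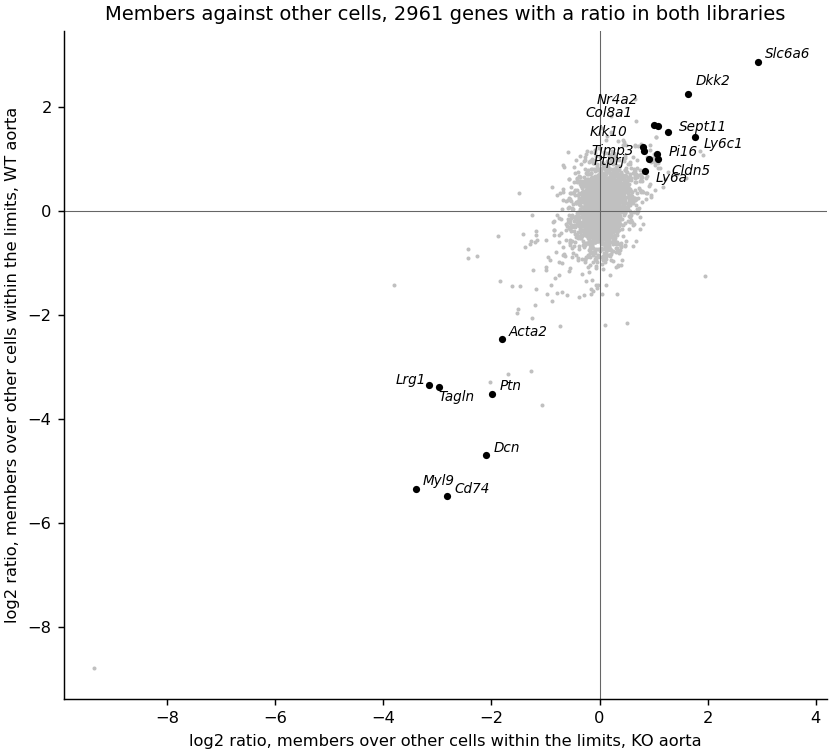
Each point is 1 of 2961 genes, with its log2 ratio of members over other cells within the limits in the KO library (horizontal) and in the WT library (vertical). Black points are named genes; Slc6a6 lies highest in both libraries, and smooth muscle, fibroblast and leukocyte genes lie lowest of the named genes, with 5 further named genes not drawn because WT members had 0 UMIs.

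For the arterial label a list of 32 arterial identity genes was read, of which 26 were measured. The list was chosen with earlier results of these data known, so it describes the members and cannot check the label. For this and the lists that follow, 55.6% (KO) and 57.6% (WT) of all 2972 genes were above comparison cells. In KO members 21 of the 26 were above, with 5 higher by the 2-fold rule (Slc6a6, Igfbp3, Dkk2, Vegfc and Sox17), 0 lower and a median log2 ratio of 0.46, beside 0.04 over all 2972 genes. In WT members 19 of 26 were above, with 3 higher (Slc6a6, Dkk2 and Gja5), 2 lower (Igfbp3 and Cxcl12) and a median of 0.39, beside 0.07. Igfbp3 was thus on opposite sides, at 89.9 against 23.2 CPM in the KO library and 18.2 against 43.3 CPM in the WT library, the WT members from 4 UMIs and with an interval that held 1 (0.107 to 1.21). Sox17 stood at 265 CPM in KO members against 110.0 in comparison cells (2.41-fold, 2.05 to 2.84), and at 218 against 129.9 in the WT library (1.68-fold, 1.15 to 2.43). Gja5 stood at 258 against 186 CPM (KO, 1.39-fold, 1.20 to 1.61) and 318 against 159 CPM (WT, 2.01-fold, 1.46 to 2.75). Gja4 differed less, at 1.19-fold (1.04 to 1.36) in KO and 1.39-fold in WT members, where the interval held 1. The tyrosine kinase gene Bmx was 1.35-fold and 1.29-fold higher.

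Not every arterial gene was higher in members. Efnb2, the arterial ephrin ligand, stood at 107 CPM in KO members against 107 in comparison cells, and at 127 against 136 in the WT library. Nrp1, a receptor that class 3 semaphorins use, was 0.7002-fold in KO and 0.669-fold in WT members, and the chemokine gene Cxcl12 0.616-fold and 0.498-fold. Nr2f2, which encodes the venous and lymphatic factor COUP-TFII, had 5 UMIs in all KO members (4.68 CPM against 52.2 in comparison cells). WT members had 0 UMIs of Nr2f2, at least 3.41-fold below the 46.5 CPM of comparison cells by the limit of 3 counts. Of 12 measured venous identity genes 3 were above comparison cells in KO and 5 in WT members (median log2 ratios -0.21 and -0.17). Sox17, Gja5, Bmx and Nr2f2 thus lay in the direction of the arterial label, while Nrp1 and Cxcl12 lay against it. Efnb2 did not set the members apart (intervals of 0.799 to 1.24 in KO and 0.587 to 1.45 in WT members). Bmx was lower with 3 or 4 markers (478 CPM KO, 611 CPM WT) than with 2 (688 and 944 CPM). Nr2f2 was also low in cells with 1 marker, at 14.2 CPM (KO) and 7.54 CPM (WT).

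Of 10 measured Notch pathway genes 8 were above comparison cells in each library (median log2 ratios 0.23 in KO and 0.56 in WT members), with 0 higher by the 2-fold rule in KO and 2 (Dll1 and Nrarp) in WT members. The ligand gene Jag1 stood at 136 CPM in KO members against 69.9 in comparison cells (1.94-fold, 1.56 to 2.42), and at 150.2 against 78.6 in the WT library (1.91-fold, 1.19 to 3.03). The ligand gene Dll1 was 1.37-fold and 2.49-fold higher. Nrarp, a target that damps Notch activity, was 1.38-fold and 2.06-fold higher. The ligand gene Dll4 was below the 50 CPM mean and not counted, with 31 KO and 13 WT UMIs in members. Of 13 measured junction and connexin genes 12 were above comparison cells in KO and 10 in WT members, with medians of 0.28 and 0.26. Of 22 measured matrix genes 18 were above in each library, with medians of 0.20 and 0.31. Fbln2 was 1.58-fold and 1.54-fold higher, and Col18a1, the source of endostatin, 1.57-fold and 2.38-fold.

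Because Atp2a3 pumps calcium and Ptprr acts on MAP kinases, the genes around both were read as lists. Of 13 measured genes of calcium handling and potassium channels 8 were above comparison cells in KO and 10 in WT members, with medians of 0.10 and 0.23, the KO count being near the share over all genes. Kcnn4, an endothelial calcium-activated potassium channel, stood at 132 CPM in KO members against 64.7 (2.04-fold, 1.63 to 2.56) and at 81.9 against 43.3 in the WT library (1.89-fold, 0.981 to 3.56). Trpv4, a calcium entry channel opened by flow and stretch, was 1.99-fold in KO and 1.93-fold in WT members. Only the KO intervals of these 2 genes lay above 1. Of 14 MAP kinase brakes 3 were measured (Dusp1, Dusp3 and Dusp6), all above comparison cells in both libraries and none 2-fold. Of 11 measured genes of microtubules and neurite growth 5 were above in each library. Stmn2 was therefore not joined by the rest of that list, although Tppp3, a tubulin polymerisation-promoting protein, was 3.61-fold higher in KO members (297 against 82.3 CPM) and 2.21-fold in WT members (95.6 against 43.3 CPM). Of 20 semaphorin, plexin and neuropilin genes 4 were measured, 2 above and 2 below in each library.

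Klf2, a leading transcription factor of laminar flow, stood at 2921 CPM in KO members against 1840.4 in comparison cells (1.59-fold, 1.52 to 1.66), and at 2143 against 1462 in the WT library (1.47-fold, 1.31 to 1.64). Slc9a3r2, a scaffold protein of endothelial membranes, was 2.04-fold and 1.84-fold higher. Nos3, the endothelial nitric oxide synthase gene, was 1.34-fold in KO and 1.18-fold in WT members. The flow response list as a whole was near the background, with 10 of 17 above in KO and 9 of 17 in WT members and medians of 0.09 and 0.04. Of 18 measured immediate early genes 15 were above comparison cells in KO and 10 in WT members (medians 0.21 and 0.01), and of 20 measured endothelial transcription factor genes 15 and 12 (medians 0.29 and 0.19). Of 12 measured vasomotor genes 6 and 5 were above (medians -0.06 and -0.08).

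Genes lower in members were endothelial genes of other vessel types and genes of other cell types. Emcn stood at 250.1 CPM in KO members against 690.4 in comparison cells (0.362-fold, 0.318 to 0.412), and at 136 against 374 in the WT library (0.365-fold, 0.241 to 0.536). Lrg1, a secreted glycoprotein, was 0.127-fold in KO and 0.0949-fold in WT members. Fabp4, a fatty acid carrier of capillaries, stood at 778 against 1847 CPM (KO) and 505 against 2115 CPM (WT), and the fatty acid receptor Cd36 at 60.0 against 125 CPM (KO) and 13.7 against 183 CPM (WT). In the list of lipid uptake genes 3 of 10 measured genes were at least 2-fold lower in each library, with medians of -0.27 and -0.31. Thbs1, thrombospondin-1, stood at 201 against 392.2 CPM (KO) and 278 against 515 CPM (WT). Of 14 measured leukocyte adhesion and chemokine genes 11 were below comparison cells in KO and 8 in WT members.

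Most of the other low genes mark cells outside the endothelium. The 12 named as lowest against comparison cells were Ccl5, Myl9, Lyz2, Cd74, Tpm2, Tagln, Lrg1, H2-Ab1, Dcn, H2-Aa, Acta2 and Ptn, with KO ratios between 0.0304 (Lyz2) and 0.285 (Acta2) where KO members had any UMI. Of these, 5 had 0 UMIs in WT members and Myl9, Cd74, Dcn and Ptn had 1 or 2. With cells that held leukocyte or haemoglobin UMIs left out, the KO log2 ratio was -0.38 for H2-Ab1, -0.59 for H2-Aa and -1.39 for Cd74, and 0.92 for Lyz2, whose KO member level came from 5 UMIs. The low ratios of H2-Ab1, H2-Aa and Lyz2 thus depended on keeping such cells. Read as lists, the 5 smooth muscle markers together stood at 456 CPM in KO members against 2087 in all other kept cells, and at 250.3 against 1483 in the WT library. The 6 fibroblast markers stood at 359.7 against 1288 (KO) and 95.6 against 375 (WT), and the 6 macrophage markers at 9.37 against 281 (KO) and 13.7 against 143 (WT). All 5 T and B cell markers had 0 UMIs in members of both libraries, as had the 3 adipocyte and 3 mesothelial markers. The 5 Schwann or neural markers ran the other way, at 108.7 against 73.7 CPM (KO) and 63.7 against 27.27 CPM (WT). The 5 erythroid markers stood at 3.75 against 2288 CPM (KO) and 36.4 against 19098 CPM (WT). Single cells carried part of these levels, since 1 KO member held 51.7% of the Acta2 UMIs of KO members and 1 held 75.0% of those of Myl9. The chemokine gene Ccl5 had 0 UMIs in members, against 91.3 CPM in KO and 154 CPM in WT comparison cells. Summed, the 8 endothelial markers stood higher in members, at 6070 against 5127 CPM (KO) and 6216 against 5247 CPM (WT). Of the 6 measured singly, 4 were above and 2 below all other kept cells in the KO library. In the WT library 3 were above and 3 below, and 1 was at least 2-fold lower in each library. Which part of the lower levels came from comparison cells of other types was not tested.

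All kept aortic cells were clustered with the 16 rule genes left out, to see where the members fell among the rest. Members were found in 7 of 13 clusters, and none of those 7 held members only. The richest was cluster 3, led by Alpl, Ssu2 and Nebl, where 87 of 162 KO cells (53.7%, 45.7 to 61.6%) and 17 of 33 WT cells (51.5%, 33.5 to 69.2%) were members. It held 27.5% of all KO and 27.0% of all WT members. Cluster 6, led by Cxcl2 and immediate early genes such as Fos, held 76 of 211 KO cells as members (36.0%) and 18 of 61 WT cells (29.5%). Cluster 2, led by Serpina1 genes, Klk10 and Meg3, held 63 of 213 (29.6%) and 12 of 49 (24.5%). In cluster 0, led by Tubb3, Serpina3n and Col8a1, 33 of 131 KO cells (25.2%) and 4 of 11 WT cells (36.4%) were members. In the cluster led by Igkc, Ccl5 and Ahsg 36 of 245 KO cells (14.7%) and 5 of 39 WT cells (12.8%) were members. In the cluster led by Thbs1 and Ctgf 18 of 119 (15.1%) and 7 of 68 (10.3%) were members. In cluster 4, led by Slc28a2, 3 of 105 KO cells and 0 of 59 WT cells were members. No member fell into the clusters led by Pdpn (190 KO and 39 WT cells) or by Plac8, Ackr1 and Lrg1 (152 and 36 cells). The members were thus spread over several aortic endothelial clusters and formed none of their own.

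**Figure D3:**
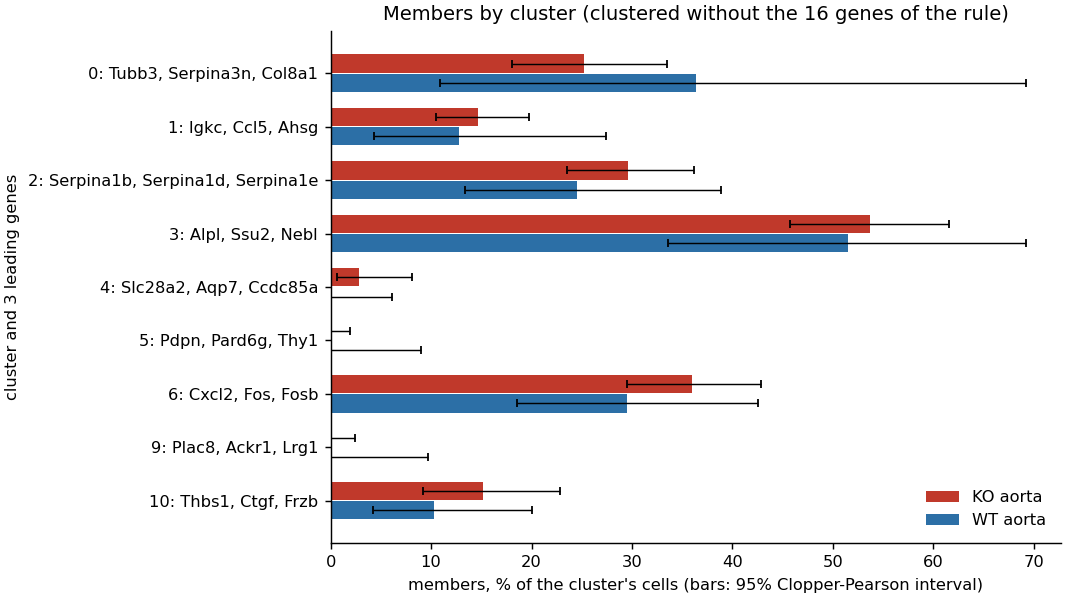
Members as a percent of each cluster's cells (horizontal axis, 95% Clopper-Pearson intervals) for every cluster of 10 or more cells per library, KO above WT, with 3 leading genes per cluster. Cluster 3 was highest, with 53.7% of KO and 51.5% of WT cells, and the clusters led by Pdpn and by Plac8 held 0 members.

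Since Sema3g was the rarest marker, members with a Sema3g UMI (77 KO and 17 WT) were set beside members without one (239 KO and 46 WT). This comparison was added after values had been seen, and a cell without a Sema3g UMI can still express the gene. Sema3g counts toward the rule, so Sema3g-negative members needed at least 2 of the other markers and Sema3g-positive members fewer. The 8 capillary genes of the rule summed to 232.2 CPM in Sema3g-positive against 68.48 in Sema3g-negative KO members. In the WT library they summed to 202.4 against 99.7 CPM, with overlapping intervals. Both classes had near depths, with medians of 2881 against 3005 UMIs in the KO library and 3157 against 3770.5 in the WT library. Of 3013 genes measured, 55 (1.83%) were higher and 68 (2.26%) lower by the 2-fold rule in Sema3g-positive KO members. In the WT library, where the 17 positive cells held 59275 UMIs, 295 (9.79%) were higher and 302 (10.0%) lower. In both libraries 28 (0.929%) were higher and 28 (0.929%) lower. With the highest cell of each class left out for each gene the split was 28 higher and 89 lower (KO) and 189 and 429 (WT), and after thinning 53 and 133 (KO) and 297 and 525 (WT). With at least 3 markers it was 90 and 59 in the KO library. Of the Sema3g-positive members 52.0% (KO) and 70.6% (WT) lay in cluster 3, against 19.7% and 10.9% of the Sema3g-negative members.

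Slc6a6 stood at 204 CPM in Sema3g-positive against 57.5 in Sema3g-negative KO members (3.55-fold, 2.34 to 5.40), and at 269.9 against 12.5 in the WT library, where the negative cells held 2 UMIs. Sparcl1, a matricellular glycoprotein, stood at 304 against 83.2 CPM (KO, 3.66-fold, 2.60 to 5.15) and 456 against 37.4 CPM (WT, 12.2-fold, 4.93 to 36.1). Alpl, tissue-nonspecific alkaline phosphatase, was 8.88-fold higher in Sema3g-positive KO members and, by the limit of 3 counts, at least 4.51-fold higher in WT members. Ssu2 was 3.40-fold higher in KO and at least 9.03-fold higher in WT members. Gper1, the G protein-coupled oestrogen receptor, stood at 68.0 against 11.01 CPM (KO) and 135 against 6.23 CPM (WT), the last from 1 UMI. The serine protease gene Prss23 was 3.02-fold and 4.06-fold higher, and Fbln5, an elastic fibre protein, 1.81-fold and 1.94-fold. Tppp3 was 2.05-fold and 6.77-fold higher, and Ly6c1 2.02-fold and 2.14-fold. Tmem100, a BMP9 target of arterial endothelium, was 7.80-fold higher in KO members. Among members with at least 3 markers, a smaller group, several of these differences were under 2-fold. The KO log2 ratios were then 0.26 for Sparcl1, 0.31 for Ly6c1, 0.34 for Tppp3 and 0.99 for Slc6a6, and the WT log2 ratio of Prss23 was 0.32. After thinning to 1000 UMIs the KO log2 ratio was 0.83 for Sparcl1 and 0.91 for Prss23.

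Of the genes lower in Sema3g-positive members, Thbs1 stood at 20.01 CPM in Sema3g-positive against 257 in Sema3g-negative KO members (0.0779-fold, 0.0250 to 0.185), and at 33.7 against 368 in the WT library (0.0918-fold, 0.0109 to 0.347). Vcam1, the leukocyte adhesion receptor, stood at 1065 against 2119 CPM (KO, 0.502-fold, 0.440 to 0.572) and 894 against 1994 CPM (WT, 0.448-fold, 0.329 to 0.601). Vcam1 in members as a whole was near comparison cells in the KO library (0.953-fold) and above them in the WT library (1.45-fold). Sod3, extracellular superoxide dismutase, was 0.284-fold in KO and 0.177-fold (0.0351 to 0.549, 3 UMIs) in WT members, and Emcn 0.251-fold and 0.0934-fold (0.00229 to 0.563, 1 UMI). Cpe (carboxypeptidase E) was 0.399-fold and 0.290-fold, and Cytl1 0.690-fold and 0.570-fold. Other low genes were Cyp1b1, Car8, Tspan6, Klk8 and Nupr1, at 0.273- to 0.584-fold in KO members. In WT members Cyp1b1 had 1 UMI in Sema3g-positive cells, and the other 4 were at 0.307- to 0.382-fold. With at least 3 markers the WT log2 ratio was -0.51 for Thbs1 and -0.64 for Nupr1 and the KO log2 ratio of Car8 -0.94, and after thinning that of Klk8 in KO was -0.60. Of 13 measured haemostasis genes 3 (KO) and 1 (WT) were above 1, against 49.7% (KO) and 50.9% (WT) of all 3013 genes, with median log2 ratios of -0.22 and -0.85.

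Arterial genes divided between the classes. Of 27 measured arterial identity genes 18 (KO) and 21 (WT) had ratios above 1 in Sema3g-positive members, with medians of 0.30 and 0.44. Sox17 was 2.31-fold higher in KO members and 1.11-fold in WT members (0.553 to 2.13). The Gja5 intervals held 1, at 0.871-fold, 0.640 to 1.17 (KO) and 1.16-fold, 0.661 to 1.97 (WT). Bmx was 0.709-fold and 0.760-fold, and Efnb2 0.385-fold and 0.451-fold. Fabp4, a capillary gene outside the rule, stood at 1649 against 511 CPM (KO) and 844 against 380.1 CPM (WT).

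**Figure D4:**
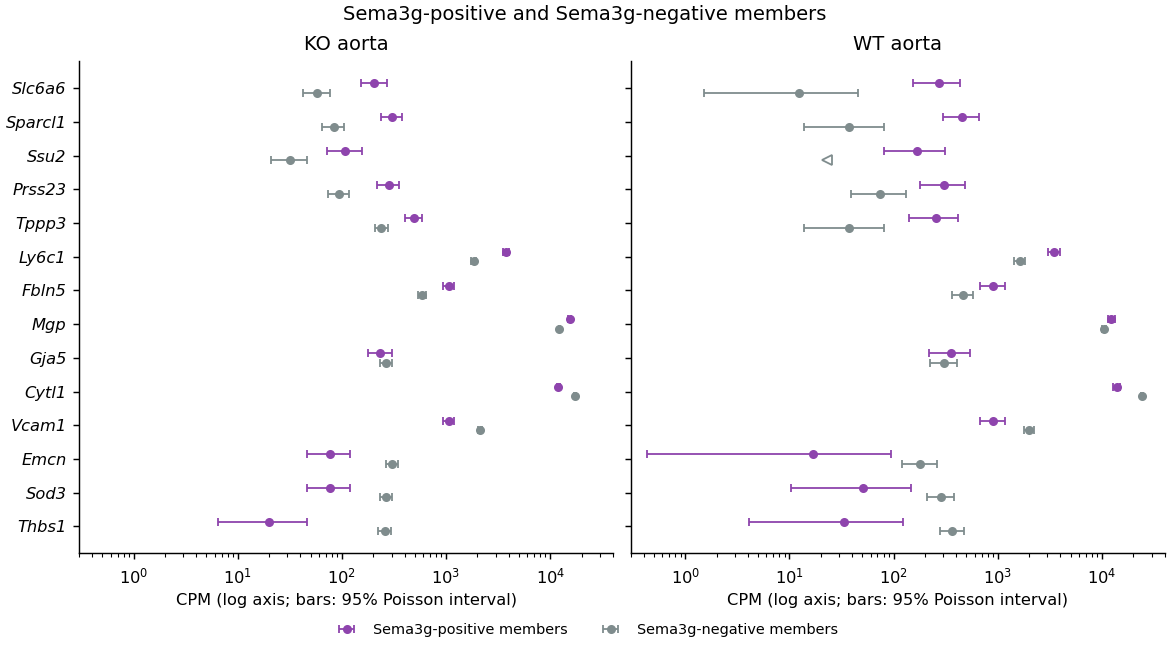
Levels of 14 genes (CPM, log axis, 95% Poisson intervals) in members with and without a Sema3g UMI, in the KO and WT libraries. Slc6a6, Sparcl1, Ssu2 and Prss23 were higher, and Vcam1, Emcn, Sod3 and Thbs1 lower, in Sema3g-positive members of both libraries; the open triangle marks the upper interval bound of Ssu2, which had 0 UMIs in Sema3g-negative WT members.

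KO members were then compared with WT members, beside the same ratio in the other kept aortic cells, since loss of OCT4 was the variable of the study. Members and other cells come from the same 2 libraries, so a difference of the whole library enters both ratios. Of 2992 genes, 47 (1.57%) were higher and 40 (1.34%) lower by the 2-fold rule in KO members than in WT members. This even split depended on the setting. It was 83 higher and 20 lower with the highest cell of each group left out for each gene, 150 and 34 after thinning to 1000 UMIs, and 111 and 39 with at least 3 markers. In the other cells 22 (0.735%) were higher and 14 (0.468%) lower, from more UMIs. The 4 markers chose the cells, so their KO and WT levels are a description only. Of the 4 markers only Sema3g had an interval that left out 1 (0.63-fold, 0.42 to 0.96). Its levels came from 77 KO and 17 WT members with a UMI. Stmn2 stood at 579.8 CPM in KO members against 564 in WT members, Ptprr at 305 against 341, Atp2a3 at 250.1 against 241 and Sema3g at 94.6 against 150.2. The median of 26 arterial identity genes was 0.09, with 1 of them (Igfbp3) higher by the 2-fold rule and 0 lower in KO members.

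Tppp3 (chr8:105467493-105471526) was higher in KO than in WT members, while the other cells ran the other way. It stood at 297 CPM in KO members against 95.6 in WT members (3.11-fold, 2.00 to 5.09), from 317 UMIs in 97 KO cells and 21 UMIs in 13 WT cells. In the other cells it stood at 126 against 170.1 CPM (0.742-fold, 0.609 to 0.910), a ratio of ratios of 4.19, 2.58 to 6.79. It was higher in KO among Sema3g-positive members (488 against 253 CPM) and among Sema3g-negative members (238 against 37.4 CPM). Lymphatic cells, which are among the other cells, held more of it, at 549 CPM in KO and 1115 CPM in WT. Comparison cells, which leave them out, stood higher in KO than in WT, as members did. Of 10 measured genes of microtubules and neurite growth 8 had KO to WT ratios above 1 in members, and 8 in the other cells. Over all 2992 genes the shares were 49.3% and 58.8%. In the other cells, which held more UMIs, 0 of the 10 were 2-fold apart (median 0.25). In members 3 of the 10 were 2-fold higher in KO and 0 lower (median 0.37). Besides Tppp3 these were the tubulin gene Tuba1b (416 against 200.2 CPM, 2.08-fold, 1.52 to 2.90) and Stmn1, stathmin-1 (119.9 against 41.0 CPM, 2.93-fold, 1.495 to 6.55). Part of the 3′ sequence of both is shared with other genes (34.7% and 41.2%). After thinning to 1000 UMIs the log2 ratio of Stmn1 was 0.83.

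Of 13 measured antigen presentation genes 10 had KO to WT ratios above 1 in members, and 10 in the other cells, beside 49.3% and 58.8% of all 2992 genes. In members 4 (Cd74, H2-Q7, H2-Q6 and H2-Q4) were 2-fold higher in KO and 0 lower (median 0.45). In the other cells 3 (the same without H2-Q4) were 2-fold higher and 0 lower (median 0.27). The non-classical class I gene H2-Q7 stood at 404 CPM in KO members against 86.5 in WT members (4.67-fold, 2.95 to 7.83), and at 2.51-fold in the other cells. H2-Q6, which shares 49.4% of its 3′ sequence with H2-Q7, was 3.91-fold higher, and H2-Q4 2.05-fold, against 0.903-fold for H2-Q4 in the other cells. The class I gene H2-K1 and its partner B2m differed less, at 1.39-fold and 1.37-fold, and by 1.57-fold and 1.51-fold in the other cells. Cd74, the class II invariant chain, had 139 UMIs in 41 KO members and 1 UMI in 1 WT member (28.6-fold, 5.05 to 1138), and 4.78-fold in the other cells. H2-Aa, H2-Ab1 and H2-Eb1, the classical class II genes, had 45, 56 and 28 UMIs in KO members and 0 in WT members. At 0 UMIs in 219763, WT members could still have held up to 13.7 CPM.

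Dcn, decorin, a fibroblast proteoglycan, had 269 UMIs in 47 KO members and 2 UMIs in 1 WT member (27.7-fold, 7.59 to 229.8), with 21.6% of the KO UMIs in 1 cell, and was 5.13-fold in the other cells. The 6 fibroblast markers together stood at 359.7 CPM in KO members against 95.6 in WT members, and at 1288 against 375 in the other cells. The 6 macrophage markers together stood at 9.37 CPM in KO members (10 UMIs) and 13.7 CPM in WT members (3 UMIs), with overlapping intervals. Of these markers Tyrobp, Fcer1g and Csf1r were at 0 in members of both libraries. In the other cells the macrophage markers stood at 281 CPM in KO against 143 CPM in WT. The part of free RNA or of attached cells in the Dcn and class II values was not tested.

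Ctla2a, a cysteine protease inhibitor of endothelium, stood at 584 CPM in KO members against 205 in WT members (2.85-fold, 2.11 to 3.95), and was 1.56-fold in the other cells. Igfbp3, an insulin-like growth factor binding protein, had 96 UMIs in 23 KO members and 4 UMIs in 3 WT members (4.94-fold, 1.87 to 18.5), against 0.860-fold in the other cells. The complement inhibitor gene Serping1 and the endoplasmic reticulum lectin gene Erlec1 were each 3.75-fold higher (1.55 to 11.8), from 91 KO and 5 WT UMIs, and 2.05-fold and 1.44-fold in the other cells. The log2 ratio with at least 3 markers was 0.48 for Ctla2a and 0.95 for Erlec1, both under 2-fold. Few WT transcripts stand behind these ratios, and the intervals are wide.

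Each of the genes given here as lower in KO members also had a ratio below 1 in the other cells. Serinc3, a membrane protein, stood at 800.0 CPM in KO members against 1543 in WT members (0.519-fold, 0.457 to 0.590), and was 0.511-fold in the other cells. Plac9b (0.213-fold), Nme2 (0.303-fold), Grcc10 (0.466-fold) and Gstp1 (0.468-fold) have 76.7% to 100% of their 3′ ends in common with other genes, which makes their levels uncertain. The heme pathway enzyme gene Blvrb was 0.412-fold, and 0.596-fold in the other cells. Cyr61, a matricellular target of YAP, stood at 1192 against 2020.4 CPM (0.590-fold, 0.529 to 0.658) and was 0.790-fold in the other cells. Krt18 stood at 93.7 against 200.2 CPM (0.468-fold, 0.325 to 0.683), and at 0.923-fold in the other cells, a ratio of ratios of 0.507, 0.336 to 0.765. Cyp4b1 (0.490-fold) and Sdc2, syndecan-2 (0.403-fold), were also lower, with 0.799-fold and 0.854-fold in the other cells. Cnot3 (0.302-fold) rested on 1 WT cell, which held 70.0% of the WT UMIs, and without the highest cell of each group its log2 ratio was -0.09. With at least 3 markers the log2 ratio was -0.28 for Sdc2 and -0.89 for Nme2, and without the cluster led by immediate early genes that of Cyp4b1 was -0.28, so these differences were under 2-fold there.

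Immediate early genes respond within minutes to stimuli that include tissue handling. Their KO to WT ratios differed between members and all other kept cells. Over all 2992 genes 49.3% had KO to WT ratios above 1 in members and 58.8% in the other cells. Of 18 measured immediate early genes 14 were higher in KO than in WT members (median 0.27). In the other cells 1 of these 18 genes was higher (median -0.24). None of the 18 genes was 2-fold apart in members. The other cells include lymphatic and capillary cells. Against all other cells the median log2 ratios of these genes in members were 0.10 (KO) and -0.37 (WT). Against comparison cells they were 0.21 and 0.01. The part of lymphatic and capillary cells in the contrast was not tested. The cluster led by immediate early genes held 24.1% of KO and 28.6% of WT members. The part of handling in these values was not tested. Fos stood at 1827 CPM in KO members against 1524 in WT members (1.20-fold, 1.07 to 1.35), and at 1509.6 against 1829.9 in the other cells (0.825-fold, 0.777 to 0.876). Socs3, a brake on cytokine signalling, stood at 204 against 114 CPM (1.79-fold, 1.18 to 2.83) and at 170.1 against 240.3 in the other cells (0.708-fold, 0.599 to 0.840). Of the flow genes, Klf2 stood at 2921 against 2143 CPM (1.36-fold, 1.24 to 1.505) and Klf4 at 588 against 605 CPM (0.972-fold, 0.805 to 1.18), and none of 17 measured flow response genes was 2-fold apart in members. Vcam1 was 1.10-fold in members (0.987 to 1.24) and 1.76-fold in the other cells, and Mgp 1.18-fold and 1.57-fold. Fabp4 was 1.54-fold in members and 0.721-fold in the other cells, of which capillary cells made up 95 of 1253 in the KO and 51 of 341 in the WT library.

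**Figure D5:**
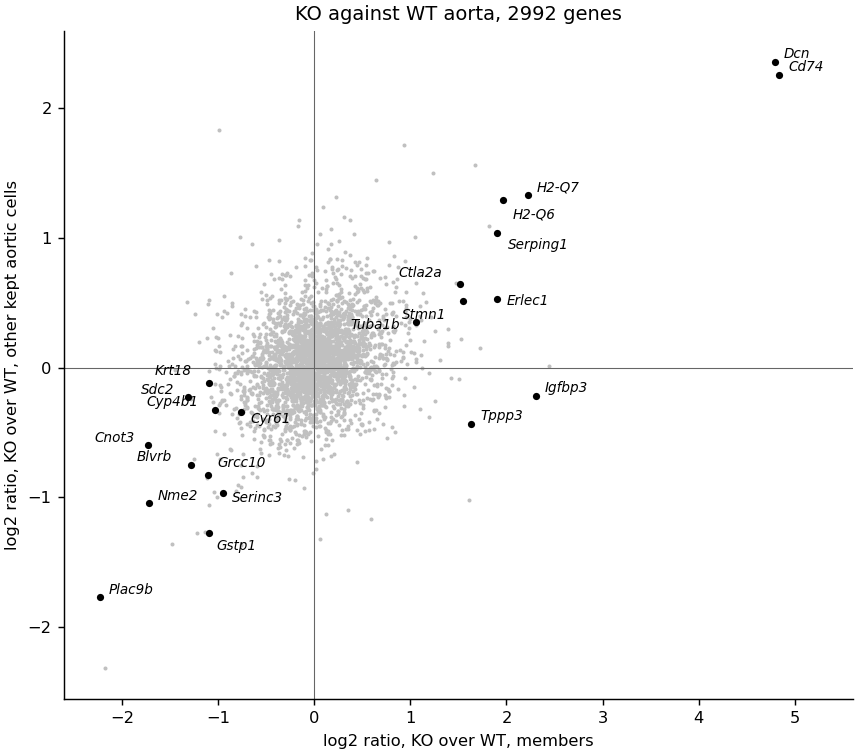
Each point is 1 of 2992 genes, with its log2 KO over WT ratio in members (horizontal) and in other kept aortic cells (vertical). Dcn, Cd74, H2-Q6 and H2-Q7 lie above 0 in both, Plac9b and Serinc3 below 0 in both, and Tppp3 and Igfbp3 above 0 in members and below 0 in the other cells.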

How the data were processed

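The deposited files of both aortic libraries hold UMI counts per gene and cell barcode, which the authors obtained from Cell Ranger with mm10 as genome, as the submitters' processing notes list them without versions. Each table had 31053 rows, and the 36 that share a symbol were summed. From these counts, cells with at least 500 UMIs and at most 15% mitochondrial UMIs were kept. UMIs were summed over the cells of a group and library and scaled to CPM. Exact Poisson, exact conditional and Clopper-Pearson intervals were computed with scipy 1.17.1 (Python 3.11.15, numpy 2.4.6, pandas 2.3.3), and the calculations were tested on simulated data. The interval of a ratio of ratios is approximate. A gene was measured from a mean of 50 CPM over the groups compared and 30 UMIs in all.

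Clusters came from scanpy 1.11.5, run on both aortic libraries together (2000 variable genes without the 16 rule genes, 30 principal components, 15 neighbours, Leiden resolution 1). Scrublet was run per library at 0.8% doublets per 1000 cells. Named genes were the 12 highest and 12 lowest of each comparison by the interval bound nearest 1 (the smaller distance of the 2 libraries where both were compared), without rule, mitochondrial, ribosomal protein, haemoglobin and unnamed genes; some are not reported here. Other genes named belong to 30 fixed lists. Members and lists were chosen with earlier results of these data known. Shared 3′ sequence is the share of 50-base words in the last 300 transcript bases found in another gene. With 1 library per genotype, library and genotype cannot be told apart. The lung libraries were used only to count cells that meet the rule.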

Additional observations from a re-analysis of the deposited data

Results flagged for a closer look

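For 8 genes the KO to WT ratio lay above 1 in members and below 1 in the other kept aortic cells, or the reverse, with counting intervals on opposite sides of 1. With 1 library per genotype these differences were not tested. The other cells include the lymphatic and capillary cells, which members leave out. Tppp3 was 3.107-fold in members and 0.742-fold in the other cells, although comparison cells, without lymphatic cells, were higher in KO, as members were. Socs3 was 1.795-fold and 0.708-fold, and the fatty acid carrier gene Fabp4 1.539-fold and 0.720-fold, where capillary cells are among the other cells. The immediate early genes Fos (1.198-fold and 0.825-fold), Jun (1.226-fold and 0.845-fold) and Ier2 (1.357-fold and 0.868-fold) shared this pattern. Eln, the gene of elastin, was 1.345-fold in members and 0.914-fold in the other cells. The metallothionein gene Mt2, chosen after its values were seen, ran the other way, at 0.5848-fold in members and 2.01-fold in the other cells. Of its WT member UMIs 41.5% (81 of 195) came from 1 cell.

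Cells of the lung libraries, which entered no comparison, also met the marker rule. In the KO lung library 93 of 508 kept cells did (18.3%, 15.04 to 21.95%), and in the WT lung library 150 of 775 (19.4%, 16.6 to 22.3%). Sema3g had a UMI in 66 of the 93 KO and 112 of the 150 WT lung cells, beside the aortic members (77 of 316 KO and 17 of 63 WT).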

How the results depend on the processing

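The share of members moved with the rule and the depth. It was 5.099% (KO) and 5.198% (WT) with at least 3 markers. With cells of at least 1000 UMIs thinned to 1000 before the rule and shallower cells left out, it was 6.897% and 7.229%. It was 22.32% (KO) with at least 1000 UMIs and at most 10% mitochondrial UMIs. Without the cluster led by immediate early genes, a setting chosen after seeing the data, it was 17.67% (KO). Counts of genes 2-fold apart depended most on the CPM minimum. Members against all other kept cells (86 KO, 163 WT) gave 207 and 694 at 20 CPM, 43 and 61 at 100 CPM, and 791 and 2264 with no CPM minimum. Members against comparison cells (71 KO, 138 WT) gave 177 and 652, 35 and 50, and 703 and 2260 under the same settings. Sema3g-positive against Sema3g-negative members (123 KO, 597 WT) gave 408 and 1625, 49 and 189, and 445 and 1727. KO against WT members (87) gave 360, 21 and 411. With at least 3 markers the counts were 156 and 358 (all other cells), 157 and 350 (comparison cells) and 150 (KO against WT). After thinning they were 130 and 576, 117 and 589, and 184, and 186 for the Sema3g split in KO members, all from fewer UMIs. A mean of per-cell CPM gave 290 (WT, all other cells), 226 (WT, comparison cells), 942 (WT, Sema3g split) and 160 (KO against WT). Without the cluster led by immediate early genes the counts were 339 and 267 in the WT library and 198 for KO against WT. The cause was not tested beyond the smaller number of cells and UMIs.

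Over 161 single-gene results and all settings run, 1256 of 1492 values moved by less than the counting interval, and the rest moved further. In 3 values the sign changed. Meg3 against all other cells in the KO library had a log2 ratio of -0.46 with at least 3 markers. The other two were Lyz2 in the KO library, at a log2 ratio of 0.95 against all other cells and 0.92 against comparison cells, once cells with leukocyte or haemoglobin UMIs were left out. Its KO member level came from 5 UMIs. Of 132 single-gene ratios past 2-fold, 45 were under 2-fold or changed sign in at least 1 setting, in 24 of 121 values with at least 3 markers, 14 of 119 after thinning and 2 to 8 values in each other setting. No paired analysis was possible because each genotype had 1 library. The 63 WT members, with 219763 UMIs, limit every WT value, and the limit for a gene with 0 UMIs was 13.65 CPM in WT members and 2.81 CPM in KO members.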
